A study of Homo sapiens with 4 samples.

Results

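The genes described here encode the enzymes and regulators of sterol synthesis and of fatty acid synthesis, elongation and desaturation. A list of 44 such genes was drawn up by pathway, and it was chosen with earlier results for the same arrays known, so the difference between the conditions is given as a description of these genes. Of the 44, 38 had a probe in the platform annotation, among 14679 genes named there. FDFT1, LSS, HSD17B7, SC5D, ME1 and TECR were without a named probe and are not analysed here. Each gene was represented by its brightest probe over the 4 arrays, and MID1IP1 alone had more than 1 probe.

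RNA was taken from T47D, a cell line of human breast ductal carcinoma that expresses the estrogen receptor, and hybridised to 4 Affymetrix arrays. FDXR sh434 cells (2 arrays) were infected with virus encoding 1 hairpin against FDXR, the mitochondrial ferredoxin reductase, and shControl cells (2 arrays) with virus encoding a control hairpin. All cells were selected with an antibiotic after infection and grew in RPMI-1640 with fetal bovine serum. The labels call the arrays of a condition biological replicates without naming separate infections, so p-values measure the spread between these samples. The design text names a retrovirus and the methods a lentivirus, and 3 source names give T48D, T49D or T50D in place of T47D. No probe carried the name FDXR, so the extent of its depletion was not analysed here.

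Sterols and fatty acids are both built from cytosolic acetyl-CoA. The SREBP transcription factors, encoded by SREBF1 and SREBF2, are held in the endoplasmic reticulum by INSIG proteins through their escort SCAP while sterols are plentiful. When sterols are scarce they are cleaved in the Golgi and enter the nucleus. There they bind sterol regulatory elements, commonly together with the CCAAT-binding factor NF-Y. SREBP2 acts mostly on sterol genes, and the main SREBP1 isoform of lipogenic tissues acts mostly on fatty acid genes. Breast epithelium uses the fatty acid branch to make milk fat, and breast carcinomas often express its enzymes strongly.

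Promoters are shown for 5 measured genes that were called higher in FDXR sh434 cells, in either fit below or in both. That of SREBF2, which was not called, is shown too. The genes were chosen by pathway and not by sequence. SREBPs commonly bind together with NF-Y, so NF-Y boxes shared by these genes are not independent of that choice. The sequences are those of RefSeq on GRCh38.p14, from 250 bases before to 50 bases after the annotated start, 5′ to 3′ on the strand of the gene. Capitals mark 3 motifs, searched on both strands: the NF-Y box CCAAT, the E-box CACGTG and a form of the SREBP site, TCACNCCAC. Matches of different motifs did not overlap in these promoters. DHCR7 has 2 starts in the table, and the promoter of the other start held no match. Each promoter shown holds an NF-Y box, but some called genes, such as SREBF1, held none at the starts searched. Of the genes not called with the trend, 15 of 20 held one, against 12 of 15 called.
THRSP promoter, chr11:78063611-78063910, plus strand: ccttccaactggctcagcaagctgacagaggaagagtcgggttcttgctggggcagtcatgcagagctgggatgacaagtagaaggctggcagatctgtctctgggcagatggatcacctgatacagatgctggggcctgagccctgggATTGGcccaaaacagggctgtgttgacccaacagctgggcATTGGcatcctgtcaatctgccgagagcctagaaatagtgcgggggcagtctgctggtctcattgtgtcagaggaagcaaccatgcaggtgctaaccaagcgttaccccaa
DHCR7 promoter, chr11:71448344-71448643, minus strand: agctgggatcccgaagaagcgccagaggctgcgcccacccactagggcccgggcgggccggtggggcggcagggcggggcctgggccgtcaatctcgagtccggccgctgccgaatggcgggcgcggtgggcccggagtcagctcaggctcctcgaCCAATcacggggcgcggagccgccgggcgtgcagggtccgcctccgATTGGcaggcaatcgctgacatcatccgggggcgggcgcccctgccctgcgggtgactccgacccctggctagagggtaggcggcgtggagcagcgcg
MVK promoter, chr12:109573544-109573843, plus strand: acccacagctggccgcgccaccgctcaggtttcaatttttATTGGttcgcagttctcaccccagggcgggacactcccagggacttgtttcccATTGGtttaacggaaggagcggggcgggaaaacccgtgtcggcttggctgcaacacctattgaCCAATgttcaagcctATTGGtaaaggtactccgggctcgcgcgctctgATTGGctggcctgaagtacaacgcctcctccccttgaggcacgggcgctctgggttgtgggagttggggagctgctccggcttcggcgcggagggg
INSIG1 promoter, chr7:155297628-155297927, plus strand: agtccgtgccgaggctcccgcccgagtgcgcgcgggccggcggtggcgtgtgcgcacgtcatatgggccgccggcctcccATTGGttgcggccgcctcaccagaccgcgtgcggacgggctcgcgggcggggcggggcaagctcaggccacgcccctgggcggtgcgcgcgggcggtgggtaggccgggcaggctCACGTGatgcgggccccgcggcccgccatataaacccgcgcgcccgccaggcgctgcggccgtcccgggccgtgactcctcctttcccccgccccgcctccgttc
MID1IP1 promoter, chrX:38801209-38801508, plus strand: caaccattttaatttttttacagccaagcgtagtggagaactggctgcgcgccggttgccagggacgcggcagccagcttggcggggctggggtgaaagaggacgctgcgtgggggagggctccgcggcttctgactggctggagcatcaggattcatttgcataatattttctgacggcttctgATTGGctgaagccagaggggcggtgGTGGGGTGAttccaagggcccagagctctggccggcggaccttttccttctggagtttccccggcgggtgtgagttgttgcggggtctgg
SREBF2 promoter, chr22:41832855-41833154, plus strand: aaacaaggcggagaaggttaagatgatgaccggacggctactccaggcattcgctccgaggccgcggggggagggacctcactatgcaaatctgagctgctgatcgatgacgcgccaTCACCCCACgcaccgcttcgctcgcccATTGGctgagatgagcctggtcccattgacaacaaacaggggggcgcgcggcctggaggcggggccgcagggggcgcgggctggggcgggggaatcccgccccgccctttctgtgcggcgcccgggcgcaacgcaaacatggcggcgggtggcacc

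Of the 38 measured genes, 35 had at least 1 promoter in the table, 45 promoters in all, some of which overlap within a gene. FASN, SQLE and ACAT2 had none there and were not searched. The NF-Y box was found in 27 of the 35 genes (77.1%), against 41.4% of the 10600 named genes with a promoter. Counted by promoter, it stood in 30 of 45 (66.7%), against 34.6% of all 35116 promoters of the table. In 19 genes a promoter held 2 or more boxes, and MVK and NSDHL held 5. Boxes on opposite strands that share bases are counted apart, as in NSDHL at -113 and -110 and in IDI1 at -132 and -129. The E-box was found in 4 genes (11.4%), ELOVL4, ELOVL5, INSIG1 and SCAP, against 11.1% of named genes. TCACNCCAC was found in MID1IP1 and SREBF2 alone, against 1.41% of named genes. In MID1IP1 its first base lay at -40 and that of the NF-Y box at -65 from the start, and in SREBF2 they lay at -133 and -106. These are matches of letters and not shown to be bound, and a promoter without a match may hold other forms of the site.

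**Figure D1:**
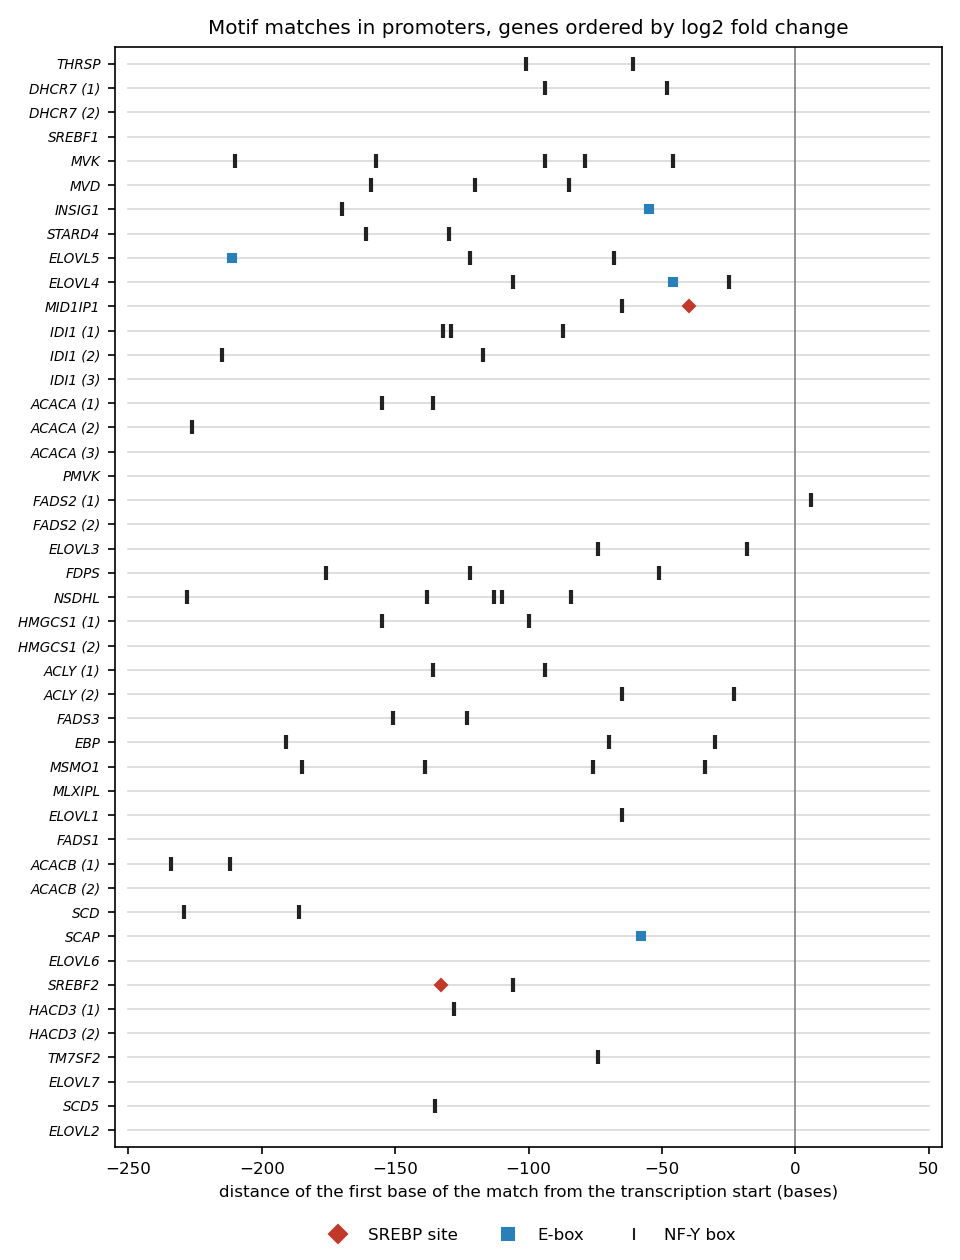
Motif matches in 45 promoters of 35 genes, 1 line for each promoter, by the distance in bases of the first base of the match from the annotated start (genes run from the highest log2 fold change at the top to the lowest, and numbers in brackets mark different starts of a gene). NF-Y boxes occur in 27 of the 35 genes, at the top and at the bottom of the order, and the SREBP site only in MID1IP1 and SREBF2.

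The deposited values are log2 signals, in which a difference of 1 is a doubling of signal. Differences were tested with limma over all 38598 probes, with Benjamini-Hochberg adjustment and a threshold of 0.05, first with 1 prior spread for all probes and then with a spread that follows the signal (an intensity trend with robust estimation). In the fit without the trend 3 of the 38 genes were higher in FDXR sh434 cells and 0 lower, against 0.298% of all probes called higher and 0.402% called lower. These were THRSP, FASN and DHCR7. In bulk RNA, more expressing cells and more RNA per cell cannot be told apart. With the trend 16 were higher and 1 lower, against 5.02% and 3.41% of all probes, or 7.42% and 3.88% of named genes. Without adjustment, 19 were higher and 3 lower at a p under 0.05 in the fit without the trend. The shares were 9.44% and 7.82% of all probes, or 12.5% and 7.51% of named genes. All 38 genes had a mean signal at or above the median of all probes. Fitted on such probes alone without the trend, 21 were higher and 3 lower at that p, against 19% and 11.6% of the probes kept. For 25 genes both FDXR sh434 arrays lay above both shControl arrays, and for 4 both lay below. This order was found for 25.6% and 23.1% of all probes, or 31.5% and 22.4% of named genes. The median log2 fold change was 0.30 over the 38 genes, against 0.03 over all named genes and 0.00 over all probes. Because the genes were chosen with this contrast in view, the counts describe them and are not evidence for a shift. Below, "passed" without further words refers to the fit without the trend.

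**Figure D2:**
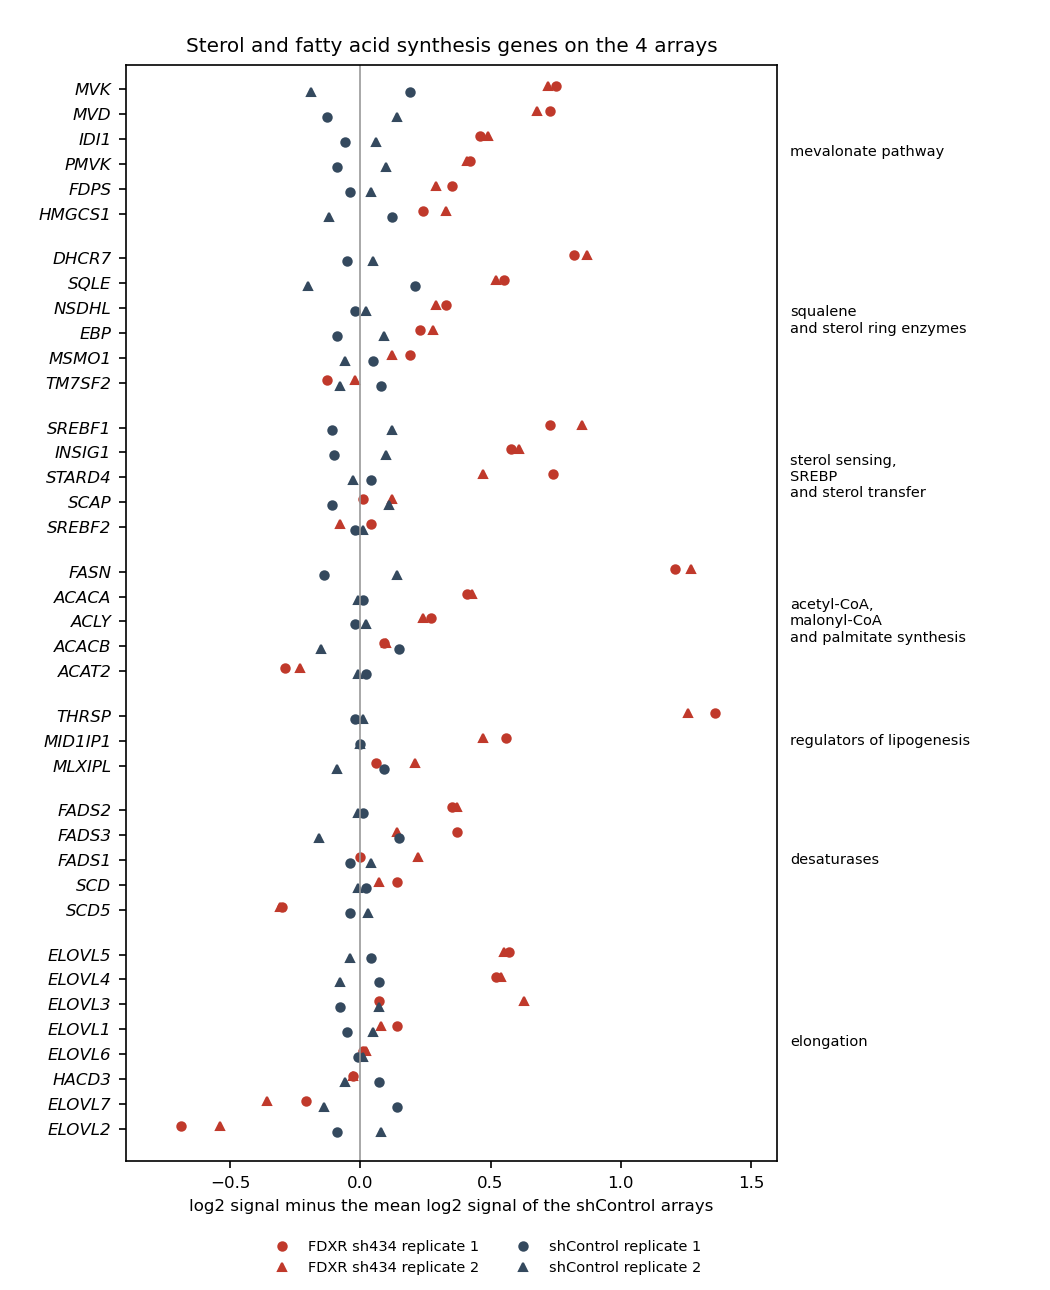
Log2 signal of each of the 38 genes on the 4 arrays, as the difference from the mean of the 2 shControl arrays of that gene, grouped by role (red, FDXR sh434; dark, shControl; circles, replicate 1; triangles, replicate 2). In 25 genes both red points lie to the right of both dark points, and in ACAT2, SCD5, ELOVL7 and ELOVL2 both lie to the left.

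Facts of the arrays as a whole are few. Median log2 signals were 4.76 and 4.77 on the FDXR sh434 arrays, against 4.76 and 4.78 on the shControl arrays. Of 12 markers of luminal breast epithelium 10 were measured, at 6.47 to 11.22 in FDXR sh434 cells and 6.57 to 11.45 in shControl cells. None passed (unadjusted, 2 were higher and 2 lower at p under 0.05), and with the trend SPDEF and KRT18 were called higher, with log2 fold changes of 0.52 and 0.26, and PGR lower, with one of -0.75. Of 8 basal or mesenchymal markers 5 were measured, none above 5.23 in FDXR sh434 cells or 5.19 in shControl cells. Of 8 fibroblast markers 3 were measured, and their summed linear signal was 61 and 64.4 in FDXR sh434 cells, against 113 and 105 in shControl cells. LUM (lumican) stood at 3.97 and 4.21 against 6.04 and 5.87, which passed (log2 fold change -1.86, adjusted p = 0.0213 from limma), DCN (decorin) at 2.24 and 2.28 against 2.13 and 2.16, and THY1 at 5.34 and 5.36 against 5.43 and 5.38. Of 9 blood and endothelial markers 3 were measured, with summed linear signals of 145 and 144 in FDXR sh434 cells against 125 and 118 in shControl cells, and none was called in either fit (1 was higher at an unadjusted p under 0.05). Of 7 proliferation genes 0 passed (3 were lower at an unadjusted p under 0.05), and 3, AURKA, PCNA and MKI67, were lower with the trend. The summed linear signal of all 7 was 2792 and 2732 in FDXR sh434 cells, against 3181 and 3096 in shControl cells. The part of these marker genes in the values below was not tested.

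The enzymes of the mevalonate pathway, which turn acetyl-CoA into the isoprenoid units of sterols, lay higher in FDXR sh434 cells in every case. All 6 measured genes had both FDXR sh434 arrays above both shControl arrays. None passed in limma without the trend (5 were higher at an unadjusted p under 0.05), 4 were higher with it, and their median log2 fold change was 0.44. MVK, mevalonate kinase, had log2 signals of 6.79 and 6.76 in FDXR sh434 cells and 6.23 and 5.85 in shControl cells. The shControl arrays differed from each other more than the FDXR sh434 arrays did, and the log2 fold change of 0.73 ± 0.154 (SE, adjusted p = 0.109) was 0.54 to 0.93 without each array in turn. MVD, the decarboxylase that makes isopentenyl diphosphate, had 6.97 and 6.92 against 6.11 and 6.38, a log2 fold change of 0.70 ± 0.131 (SE, adjusted p = 0.0895). IDI1, the isomerase of that product, had 7.48 and 7.51 against 6.96 and 7.08. Its arrays were close within each condition, and the log2 fold change was 0.47 (standard error 0.107, adjusted p = 0.121). PMVK, phosphomevalonate kinase, had 7.35 and 7.34 against 6.84 and 7.03, a log2 fold change of 0.41. These 4 genes were the ones called with the trend, at adjusted p = 0.00926 for MVK, 0.00556 for MVD, 0.00873 for IDI1 and 0.0258 for PMVK. HMGCS1, the synthase at the entry of the pathway, had 7.64 and 7.73 against 7.52 and 7.28, and FDPS, which makes farnesyl diphosphate, 6.48 and 6.42 against 6.09 and 6.17. Neither was called in either fit, with log2 fold changes of 0.29 and 0.32. That of HMGCS1 was 0.16 without shControl replicate 2 and 0.41 without shControl replicate 1.

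Of the enzymes that build squalene and the sterol ring, 6 of 10 were measured, and their median log2 fold change was 0.28. DHCR7, the reductase of the last step of cholesterol synthesis, had log2 signals of 9.34 and 9.39 in FDXR sh434 cells and 8.47 and 8.57 in shControl cells. Both FDXR sh434 arrays lay well clear of the shControl arrays, and the gene rose 1.8-fold (log2 fold change 0.84 ± 0.106 SE, adjusted p = 0.0496, and 0.000114 with the trend). After quantile normalization its adjusted p was 0.0553, with a log2 fold change of 0.81. SQLE, squalene epoxidase, an early oxygen-dependent and rate-limiting step, had 8.39 and 8.36 against 8.05 and 7.64. Its shControl arrays were 0.40 apart, and the log2 fold change of 0.53 ± 0.159 (SE, adjusted p = 0.194, and 0.0243 with the trend) was 0.33 without shControl replicate 2 and 0.73 without shControl replicate 1. The other 4 were called in neither fit. MSMO1, a methylsterol oxidase, had 8.44 and 8.37 against 8.30 and 8.19, a log2 fold change of 0.16. NSDHL, which works beside it in removing methyl groups, had a log2 fold change of 0.31, and EBP, an isomerase of the sterol ring, one of 0.25, both with the FDXR sh434 arrays above the shControl arrays. TM7SF2, a sterol reductase whose step LBR also carries out, had 6.65 and 6.76 against 6.86 and 6.70, and its arrays overlapped.

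Among the genes of sterol sensing and transfer, 3 stood apart from the other 2. SREBF1 had log2 signals of 7.05 and 7.17 in FDXR sh434 cells and 6.21 and 6.44 in shControl cells, a 1.72-fold difference (log2 fold change 0.78 ± 0.127 SE, adjusted p = 0.0718). INSIG1, which retains the SREBPs and is itself a target of them, had 7.74 and 7.77 against 7.06 and 7.26, a log2 fold change of 0.60 ± 0.117 (SE, adjusted p = 0.096). STARD4, a cytosolic carrier of cholesterol, had 7.13 and 6.86 against 6.43 and 6.36, a log2 fold change of 0.60 ± 0.13 (SE, adjusted p = 0.114). All 3 were called higher with the trend, at adjusted p = 0.00254 for SREBF1, 0.00381 for INSIG1 and 0.00984 for STARD4. For STARD4 the FDXR sh434 arrays were 0.26 apart, and the log2 fold change was 0.47 without FDXR sh434 replicate 1 and 0.73 without FDXR sh434 replicate 2. SREBF2 had 7.63 and 7.51 against 7.57 and 7.60, and SCAP 7.02 and 7.13 against 6.90 and 7.12. The arrays of both genes overlapped, with log2 fold changes of -0.01 (standard error 0.107) and 0.06 (standard error 0.124). The difference between SREBF1 and SREBF2 was not tested.

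In the branch that makes palmitate, FASN, the fatty acid synthase, had log2 signals of 10.29 and 10.35 in FDXR sh434 cells and 8.94 and 9.22 in shControl cells. The 2 conditions were 1.08 apart at their nearest arrays, and FASN passed (log2 fold change 1.24 ± 0.131 SE, adjusted p = 0.0334, and 5.58e-05 with the trend), ranking 22 of 14679 named genes by its log2 fold change. ACACA, the acetyl-CoA carboxylase of the cytosol, had 9.26 and 9.28 against 8.86 and 8.84. Its arrays lay 0.02 apart in each condition, and the log2 fold change was 0.42 (standard error 0.101, adjusted p = 0.135, and 0.00274 with the trend). ACLY, ATP-citrate lyase, the source of cytosolic acetyl-CoA, had 10.86 and 10.83 against 10.57 and 10.61, a log2 fold change of 0.26 ± 0.101 (SE, adjusted p = 0.285, and 0.00995 with the trend). ACACB, the carboxylase of the mitochondrial surface whose malonyl-CoA restrains CPT1, had 5.01 and 5.02 against 5.07 and 4.77, and its arrays overlapped. ACAT2, the cytosolic thiolase that feeds the mevalonate pathway, ran the other way, at 7.45 and 7.51 against 7.76 and 7.73. Its log2 fold change was -0.26 (standard error 0.102, adjusted p = 0.287, and 0.076 with the trend), unlike those of the 6 mevalonate genes downstream of it.

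THRSP, a small protein that promotes lipogenesis in liver, fat and lactating mammary gland, had the largest log2 fold change of the 38 genes. Its log2 signals were 6.77 and 6.67 in FDXR sh434 cells and 5.39 and 5.42 in shControl cells. THRSP rose 2.48-fold (log2 fold change 1.31 ± 0.106 SE, adjusted p = 0.0241, and 0.000145 with the trend) and ranked 18 of 14679 named genes. MID1IP1, its paralog, which promotes the assembly of acetyl-CoA carboxylase into filaments, had 7.35 and 7.26 against 6.79 and 6.79, a log2 fold change of 0.52 ± 0.104 (SE, adjusted p = 0.101, and 0.00639 with the trend). The other probe of MID1IP1 read 5.57 and 5.72 against 4.95 and 5.14, a log2 fold change of 0.60 ± 0.125 (SE), so both probes lay on the same side. MLXIPL, the carbohydrate-responsive transcription factor ChREBP, had 5.66 and 5.81 against 5.69 and 5.51, and its arrays overlapped.

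**Figure D3:**
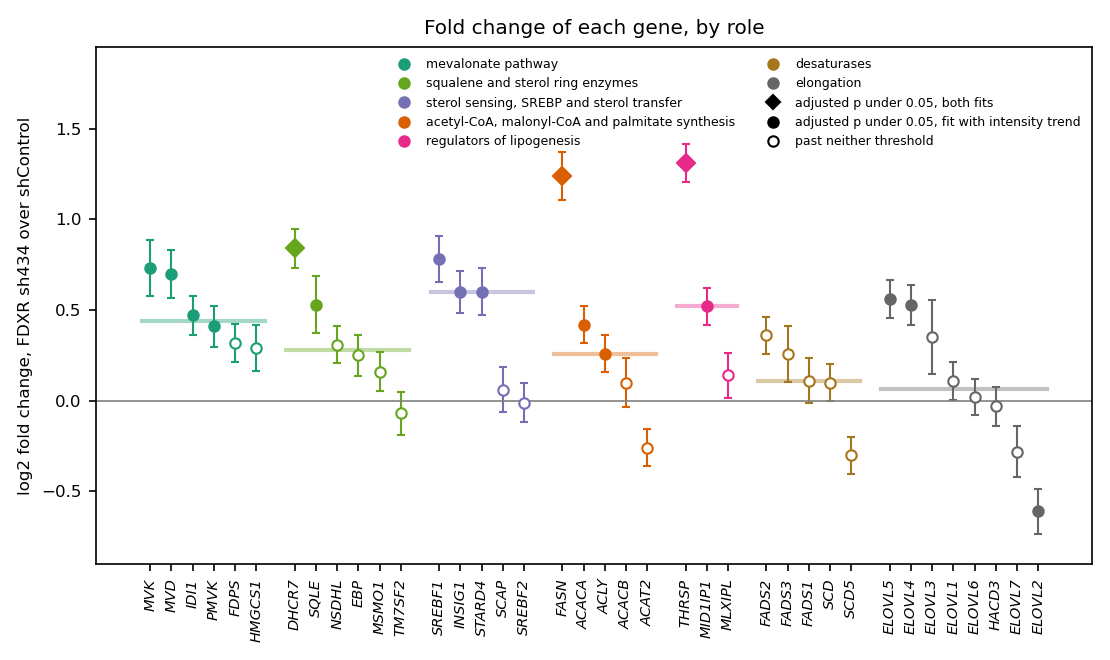
Log2 fold change of FDXR sh434 over shControl for each gene by role, with the standard error of limma without the trend (n = 2 arrays each) and the median of each role as a line. THRSP, FASN and DHCR7 (diamonds) passed in both fits, 14 more genes (filled circles) with the intensity trend alone, ELOVL2 being the only one of these below 0.

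Desaturases, which place double bonds in fatty acyl chains, were centred on a log2 fold change of 0.11 (median), and 0 of 5 were called in either fit (1 was higher, FADS2, and 1 lower, SCD5, at an unadjusted p under 0.05). SCD, the main desaturase of palmitate and stearate and a well-known SREBP1 target, had log2 signals of 10.95 and 10.88 in FDXR sh434 cells and 10.83 and 10.80 in shControl cells. The arrays did not overlap, but the log2 fold change was 0.10 (standard error 0.103, adjusted p = 0.681). SCD5, a further stearoyl-CoA desaturase, which mice and rats lack, had 4.68 and 4.67 against 4.94 and 5.01, a log2 fold change of -0.30 ± 0.103 (SE, adjusted p = 0.23). FADS2 and FADS1, which desaturate polyunsaturated fatty acids in turn and lie beside FADS3 on chromosome 11, had log2 fold changes of 0.36 and 0.11. The FADS2 arrays did not overlap (adjusted p = 0.169). Those of FADS1 and FADS3 did, and FADS3 had a log2 fold change of 0.26, which was 0.10 without shControl replicate 2 and 0.41 without shControl replicate 1.

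The elongation genes went in both directions. ELOVL5, which lengthens polyunsaturated chains, had log2 signals of 8.76 and 8.74 in FDXR sh434 cells and 8.23 and 8.15 in shControl cells, a log2 fold change of 0.56 ± 0.104 (SE, adjusted p = 0.0867, and 0.0012 with the trend). ELOVL4, which makes the very long chains of skin, retina and brain, had 6.27 and 6.29 against 5.82 and 5.67, a log2 fold change of 0.53 (adjusted p = 0.108, and 0.0186 with the trend). ELOVL2, which acts on the longer polyunsaturated chains after ELOVL5, was the 1 gene called lower with the trend. It had 5.92 and 6.07 against 6.52 and 6.69, a log2 fold change of -0.61 ± 0.122 (SE, adjusted p = 0.0992, and 0.00994 with the trend). The 2 conditions did not overlap for ELOVL5 or for ELOVL2, in opposite directions, and the difference between these genes was not tested. ELOVL3, another elongase of saturated chains, had 4.94 and 5.50 against 4.79 and 4.94, so that its log2 fold change of 0.35 was 0.63 without FDXR sh434 replicate 1 and 0.07 without FDXR sh434 replicate 2. HACD3, a dehydratase of the elongation cycle, had 10.71 and 10.71 against 10.81 and 10.68. ELOVL6, the elongase of palmitate, had a log2 fold change of 0.02, ELOVL1, which lengthens saturated very long chains, one of 0.11 and ELOVL7 one of -0.28, which was -0.14 without shControl replicate 1 and -0.43 without shControl replicate 2. None of ELOVL3, HACD3, ELOVL6, ELOVL1 and ELOVL7 was called in either fit. After quantile normalization ELOVL6 and HACD3 changed sign, at -0.04 and 0.01.

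**Figure D4:**
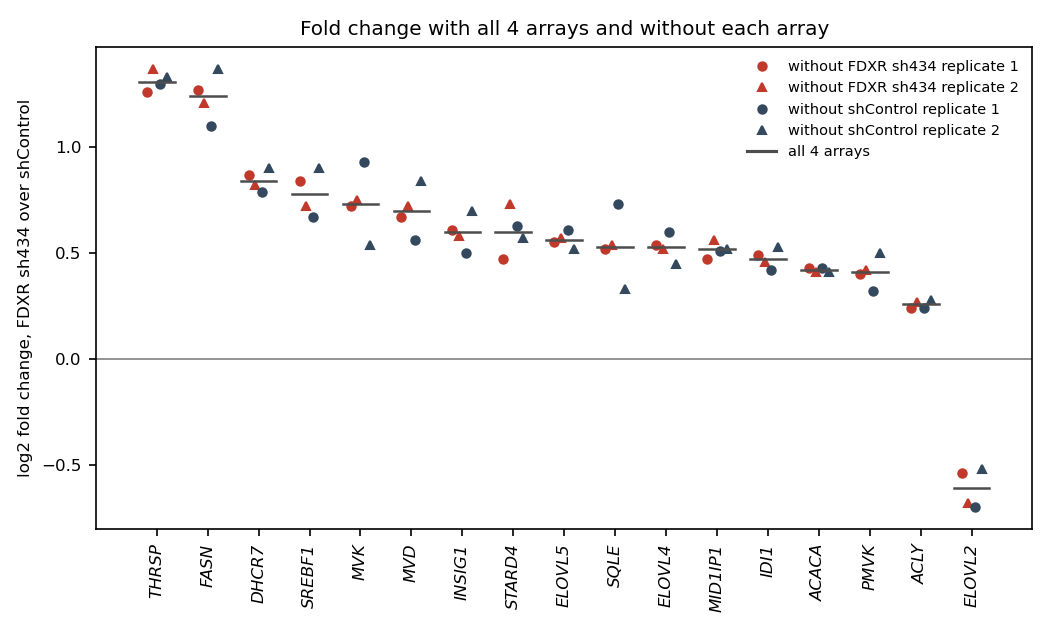
Log2 fold change of FDXR sh434 over shControl for the 17 genes called with the intensity trend, with all 4 arrays (line) and without each array in turn (red, an FDXR sh434 array left out; dark, a shControl array left out). All 17 keep their sign, and SQLE, from 0.33 to 0.73, and MVK, from 0.54 to 0.93, span the widest ranges.

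The spread between arrays of 1 condition sets how firmly the calls can be read. Over the 38 genes the median difference between the 2 arrays was 0.0568 in FDXR sh434 cells and 0.123 in shControl cells, against 0.118 and 0.151 over all probes. All probes include dimmer ones, while the 38 genes lay at or above the median signal, so the sets are not alike. In 29 genes the shControl arrays were the wider pair, and the share of all probes with that order was not counted. Without any 1 array limma without the trend called 0 of the 38 genes (13 to 19 were higher and 1 to 2 lower at an unadjusted p under 0.05, against 5.09% to 9.2% and 4.85% to 8.48% of all probes). Such a fit leaves 1 array in 1 condition, so log2 fold changes are compared instead. Without each array in turn they were 0.79 to 0.90 for DHCR7, 1.10 to 1.37 for FASN and 1.26 to 1.37 for THRSP. The log2 fold change kept its sign without any 1 array in 32 genes, among them all 17 called with the trend. In 16 genes 1 array moved the value by more than 1.5 times or turned its sign, and SQLE was the only one of them called with the trend. The 6 that turned were TM7SF2, SCAP, SREBF2, ACACB, FADS1 and HACD3.

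Further genes of the pathway were counted from lists that hold none of the 38. None of the measured genes passed in limma without the trend, and counts at an unadjusted p under 0.05 follow each list. They are to be read against the 12.5% of all named genes that were higher and the 7.51% that were lower at that p. Among probes at or above the median signal, fitted alone, the shares were 19% and 11.6%. Most measured genes of these lists lay at or above that median. Of 15 other genes of sterol and isoprenoid synthesis 7 were measured, with a median log2 fold change of 0.01 (3 higher and 1 lower unadjusted, and the same counts with the trend). DHDDS, which draws on farnesyl diphosphate to make dolichol, had 8.21 and 8.06 in FDXR sh434 cells against 7.37 and 7.61 in shControl cells, a log2 fold change of 0.65, while LBR had one of -0.58. Of 15 genes of SREBP processing and sterol-dependent degradation 9 were measured, with a median of 0.02 (2 higher and 2 lower). INSIG2, with shControl arrays 0.42 apart, had a log2 fold change of 0.54, which was 0.33 without shControl replicate 2. ERLIN1, a protein of the endoplasmic reticulum membrane, had one of -0.45.

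Of 14 other SREBP target genes 6 were measured, with a median of 0.24 (2 higher and 1 lower). ACSS2, the cytosolic acetyl-CoA synthetase, had 6.73 and 6.78 against 6.41 and 6.23, a log2 fold change of 0.44, and PNPLA3, a lipid droplet protein, one of -0.38. Of 15 genes of sterol uptake, transport and esterification 10 were measured, with a median of 0.09 (3 higher and 1 lower). VLDLR, a lipoprotein receptor, had 5.79 and 5.46 against 4.94 and 4.75, a log2 fold change of 0.78, and SOAT1, which esterifies cholesterol, one of -0.45. Of 14 genes that supply NADPH and acetyl-CoA 9 were measured, with a median of -0.03 (2 higher and 0 lower). ACSS2 is counted in this list too and had the largest change in it, followed by TKT, the transketolase of the pentose phosphate pathway, with a log2 fold change of 0.37. Of 10 other genes of elongation and mitochondrial fatty acid synthesis 5 were measured, with a median of 0.11 (1 higher and 1 lower). HSD17B12, the ketoacyl-CoA reductase of the elongation cycle, had 4.18 and 4.28 against 4.63 and 4.86, a log2 fold change of -0.52. Its mean signal lay under the median of all probes (4.76), and limma with the trend did not call it (adjusted p = 0.08). MECR, the enoyl reductase of mitochondrial fatty acid synthesis, had a log2 fold change of 0.32. With the trend the calls were 2 higher and 2 lower for SREBP processing, 2 and 0 for the other SREBP targets, 3 and 1 for uptake, 2 and 1 for supply, and 0 and 0 for the last list. These counts, and that of sterol and isoprenoid synthesis above, are to be read against 7.42% of named genes called higher and 3.88% called lower with the trend.

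By NF-Y box, 12 of the 15 genes called with the trend that have a promoter in the table held one, and 15 of the 20 that were not called. THRSP, DHCR7, MVK and MID1IP1, printed above, are among the 12. SREBF1, with the fourth largest log2 fold change of the 38, held none of the 3 motifs in the window of the start searched. Any other start of SREBF1 was not searched.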

How the data were processed

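RNA of T47D cells was measured on 4 Affymetrix arrays, 2 of FDXR sh434 and 2 of shControl cells. The authors deposited log2 signals, 1 per probe, already on 1 scale (0.69 to 13.74). Background correction, summarisation and normalization were by methods not given in the sources used here. Among tools, the submitters' processing notes name limma 3.50.3. No scanner values were used, so signal over background is unknown. Precision is limited by the number of arrays.

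Gene names came from the platform annotation (15715 with 1 symbol, 22883 with none). The test was that of limma 3.58.1 in R 4.3.3 (lmFit, eBayes), FDXR sh434 minus shControl, condition as the only term, Benjamini-Hochberg adjustment over 38598 probes, threshold 0.05, with 2 residual and 3.45 prior degrees of freedom. Alternatives were an intensity trend with robust estimation, a replicate block, quantile normalization, median centring, leaving out dimmer probes, named probes only, the methods' t-test and each array left out. With 2 arrays a condition, no exact permutation p can fall under 0.333. Tables and figures used Python 3.11.15, pandas 2.3.3, numpy 2.4.6 and matplotlib 3.10.9. Genes and lists were chosen with earlier results of these data known. All 44 genes of the list are named. Array values are given for those called in either fit and for the brightest and dimmest of the rest in each role, and from other lists the 2 largest changes whose arrays do not overlap.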

Additional observations from a re-analysis of the deposited data

How the results depend on the processing

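Over all probes 115 were higher and 155 lower. The counts were 1937 and 1318 with the intensity trend and robust estimation, 1546 and 995 without probes under the median signal, 390 and 297 among probes with a gene symbol, and 2208 and 1517 with a replicate block and the trend. The replicate block alone and the methods' t-test called 0 and 0 (6268 and 5368 probes at an unadjusted p under 0.05). Without 1 array the counts were 0 to 0 in each direction. With the trend they were 259 and 321 without FDXR sh434 replicate 1, 266 and 305 without FDXR sh434 replicate 2, 1842 and 1064 without shControl replicate 1, and 1657 and 1276 without shControl replicate 2.

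Of the 38 genes, 3 were higher and 0 lower. This became 16 and 1 with the trend, 16 and 1 with the block and the trend, 15 and 1 without dimmer probes and 8 and 1 among named probes. It was 0 and 0 with the replicate block alone (18 and 2 unadjusted, against 8.55% and 7.68% of all probes). It was also 0 and 0 with the methods' t-test (17 and 3 unadjusted, against 8.09% and 5.82% of all probes). Without 1 array it was 0 to 0 in each direction, and with the trend 3 and 0 without either FDXR sh434 array, 16 and 1 without shControl replicate 1 and 14 and 0 without shControl replicate 2. Quantile normalization left 2 and median centring 3 higher. No called gene changed sign under any alternative. Deviations of arrays with the same replicate number correlated at 0.00196 over all probes and at 0.0268 over probes at or above the median signal. These values cannot show whether such arrays were prepared as pairs. The median log2 fold change of the 12 sterol enzymes, 0.37, was 0.35 to 0.38 without 1 array. That of the 5 sensing and transfer genes, 0.60, was 0.47 to 0.58, and that of the 21 fatty acid genes, 0.14, was 0.13 to 0.24, with 0.24 without shControl replicate 1 and 0.21 without FDXR sh434 replicate 1. Why the counts differ between fits was not tested.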

Other observations

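Genes of the liver X receptor, which senses oxysterols and switches on cholesterol export, and of the kinase AMPK, which phosphorylates acetyl-CoA carboxylase, were counted in the same way. Of 14 genes of the receptor and its targets 5 were measured, with a median log2 fold change of 0.05. LPCAT3, which places polyunsaturated chains in phospholipids, had log2 signals of 8.01 and 7.92 in FDXR sh434 cells and 7.24 and 7.14 in shControl cells, a log2 fold change of 0.78 ± 0.108 (SE, adjusted p = 0.0546 from limma, and 0.000562 with the trend). MYLIP, a ubiquitin ligase, had one of 0.03. Of 9 genes of AMPK and its kinases 1 was measured, STK11, with a log2 fold change of 0.25 ± 0.103 (SE, adjusted p = 0.3).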
